A study of Sus scrofa with 80 samples.

Results

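Pigs were compared by the self-product of 2 of their own blood traits, CD8+ and IFN-alpha. The label of the trait pair selected the members, 5 arrays of the high self-product group and 5 arrays of the low group, out of 80 arrays in the whole series and its 8 trait pairs. All 10 animals were weaned piglets bled from the anterior vena cava at 35 days of age, with no treatment and no genotype named in the labels. The CD8+ trait was measured by flow cytometry, IFN-alpha with an immunological kit, and total RNA from blood was labelled with biotin and hybridised to an Affymetrix porcine array. The 2 groups are the extremes of the ranking by self-product. The formula of the self-product and the trait values of single pigs are not used here, so a high self-product is not read as a high value of each trait. Each value is log2 expression of 1 probe set, and a difference is always the high group minus the low group, so that a difference of 1 is a doubling.

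CD8 is the coreceptor of T cells that recognise peptides on class I molecules. The CD8 alpha chain is encoded by CD8A and the beta chain by CD8B. Cytotoxic T cells carry the pair of both chains, while in pigs many natural killer (NK) cells, gamma delta T cells and memory helper T cells carry the alpha chain alone. IFN-alpha is a type I interferon: it binds the receptor chains IFNAR1 and IFNAR2, and the signal passes through the kinases JAK1 and TYK2 to antiviral genes such as MX1, OAS1 and the IFIT family. Type I interferon also acts on T cells and NK cells, where it favours killing functions.

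Over 23999 probe sets, 0 passed an adjusted p of 0.05 in limma (0%), and the smallest adjusted p was 1. An unadjusted p under 0.05 was reached by 474 probe sets (1.98%), of which 287 were higher in the high group (1.2%) and 187 lower (0.779%). This is below the 1200 that chance gives at that threshold. After centring each array on its median the split was 233 higher and 232 lower. All values of the 5 high arrays lay outside the values of the 5 low arrays for 68 probe sets (0.283%). The number that chance gives for this was not computed, so a lack of overlap is a description and no evidence of a change. Genes below are therefore given as values, many of them with errors, and no single gene is called changed. A difference printed without an error says nothing of its spread between pigs.

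The 10 arrays came from 10 different pigs. Within the low group arrays correlated between 0.935 and 0.981, and within the high group between 0.967 and 0.985. The spread between pigs was larger in the low group for 73.1% of probe sets, with a median SD of 0.358 against 0.247. The hybridisation controls bioB and bioC, bacterial transcripts added to every sample, set 2 arrays apart, low replicate 5 and high replicate 3: bioB minus bioC was -3.72 and -4.05 in these and between -1.66 and -1.51 in the other arrays. EIF1AY, a gene of the Y chromosome, stood at 7.47 in low replicate 2 and 8.29 in high replicate 4, and at most 3.06 in the other 8 arrays. Each of these classes holds 1 low and 1 high array, so neither is confounded with the groups. The actin controls, whose 3′ minus 5′ value is a measure of RNA integrity, ran from 1.95 to 3.99 in the low group and from 1.67 to 2.92 in the high group. Transcripts of red cells and leukocytes were present in all arrays, with ALAS2, an enzyme of haem synthesis in red cell precursors, between 8.65 and 14.05 and PTPRC, which encodes the leukocyte antigen CD45, between 7.47 and 8.93.

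CD8A was the gene with the smallest p among named genes without overlap, and it encodes part of the trait itself. In the 5 low arrays CD8A measured 9.23, 9.88, 9.55, 9.48 and 9.08, and in the 5 high arrays 11.07, 10.54, 10.91, 10.04 and 11.65. The groups did not overlap, and the gap between them was narrow, since the highest low pig reached 9.88 and the lowest high pig 10.04. CD8A averaged 9.45 ± 0.31 in low pigs and 10.84 ± 0.60 in high pigs (SD, n = 5 each), which is a difference of 1.40 (SE 0.27, 95% interval 0.80 to 1.99), or 2.63-fold. In limma the unadjusted p of CD8A was 0.000267 and the adjusted p was 1. The difference of CD8A lay between 1.20 and 1.71 in 24 other settings, with an adjusted p of 0.273 or more in each. Blood RNA was measured in bulk, so more CD8-bearing cells and more CD8A transcript per cell cannot be told apart.

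CD8B measured 6.76, 7.90, 7.47, 7.70 and 7.82 in the low arrays and 8.06, 8.28, 8.81, 7.14 and 9.01 in the high arrays. High replicate 4, the pig with the lowest CD8A of its group, was below 4 of the 5 low pigs, and the other 4 high pigs were above every low pig. CD8B averaged 7.53 ± 0.46 and 8.26 ± 0.74 (SD, n = 5 each), so that the difference was 0.73 (SE 0.34, 95% interval -0.01 to 1.47) with an unadjusted p of 0.0532 and an adjusted p of 1 in limma. Among arrays of the lower EIF1AY class alone, which leaves out high replicate 4 and low replicate 2, the difference of CD8B was 1.10.

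**Figure D1:**
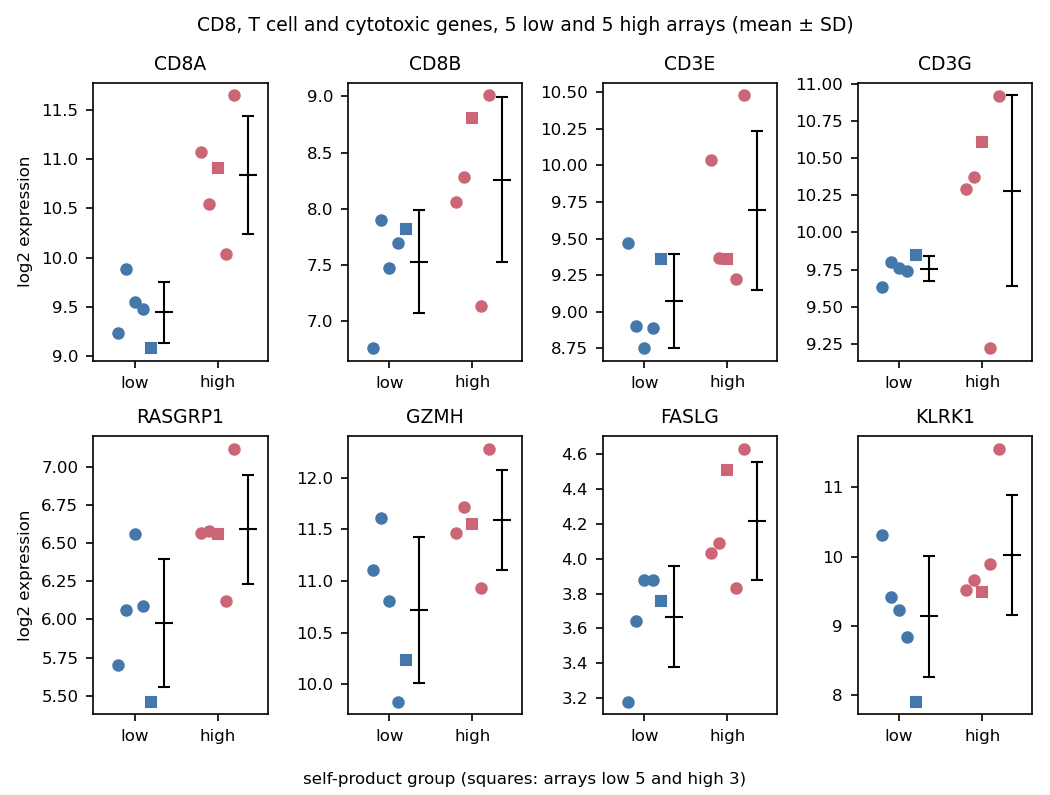
Log2 expression (vertical axes) of 8 genes of CD8, T cells and cytotoxic cells in the low and high self-product groups, 1 point per pig, with the mean and SD beside the points; squares are low replicate 5 and high replicate 3, whose hybridisation controls stand apart. CD8A separates the groups, between 9.08 and 9.88 and between 10.04 and 11.65, while the other 7 genes overlap and high replicate 5 is the highest pig in each panel.

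Genes of the T cell receptor complex and its signalling were higher in the high group in 13 of 13 cases, against 52.5% of all 6765 genes, and 2 of the 13 had an unadjusted p under 0.05 in the higher direction (1.09% of all genes had). None passed the adjusted threshold in limma. The median difference was 0.414, against 0.0112 over all genes. CD3E, a signalling chain of the receptor complex, measured 9.47, 8.90, 8.75, 8.89 and 9.36 in the low arrays and 10.04, 9.37, 9.36, 9.22 and 10.48 in the high arrays. High replicates 1 and 5 were above all low pigs in CD3E, and the other 3 high pigs lay within the low range. The difference of CD3E was 0.62 (SE 0.26).

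RASGRP1, which activates Ras below the T cell receptor, also differed by 0.62 (SE 0.23), but by 0.238 with array weights. CD3G, another chain of the complex, was nearly constant in the low group, between 9.63 and 9.85, and ran from 9.22 to 10.92 in the high group, where only high replicate 4 was below the low pigs. Differences of the other members ran from 0.06 for LAT, an adaptor of the receptor, to 0.83 for SH2D1A, an adaptor of the SLAM receptors. CD4, the coreceptor of helper T cells, was among those with small differences, at 0.16. The mean over the 13 genes came to 8.20 ± 0.133 in low pigs and 8.61 ± 0.355 in high pigs (SD, n = 5 each). Without high replicate 5 all 13 genes were still higher, with a median of 0.263. Arrays of the higher bioB minus bioC class alone gave 11 of 13.

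For genes of naive and memory T cells, 6 of 10 were higher, with a median difference of 0.0254. LEF1, which acts in naive T cells as a transcription factor, differed by 0.33 (SE 0.36), and by 0.0708 without low replicate 2. CCR7, the homing receptor of naive T cells to lymph nodes, differed by 0.25 (SE 0.24). FOXP1 and S1PR1 went the other way, at -0.33 (SE 0.28) and -0.19 (SE 0.21). Of 5 genes of T cell activation and inhibition 4 were higher (median 0.309). CD69, an early activation marker, differed by 0.76 (SE 0.49), but by 0.366 without high replicate 2 and 0.166 with array weights, and CTLA4, an inhibitory receptor, by 0.31 (SE 0.17). IL2RA, the alpha chain of the IL-2 receptor, was the member with a negative difference, -0.22 (SE 0.20).

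Genes of cytotoxic and NK cells were higher in 12 of 15 cases, with a median of 0.285, where 52.5% of all genes were higher. An unadjusted p under 0.05 in the higher direction was found for 2 of the 15, against 1.09% of all genes. GZMH, a granzyme of killer cells, measured 11.11, 11.61, 10.81, 9.83 and 10.23 in the low arrays and 11.46, 11.72, 11.55, 10.93 and 12.28 in the high arrays. High replicates 2 and 5 were above every low pig, and low replicates 3, 4 and 5 were below every high pig. The difference of GZMH was 0.87 (SE 0.33), or 1.83-fold. FASLG, the ligand that triggers death through FAS, was near the bottom of the array's scale at 3.67 ± 0.29 and 4.22 ± 0.34 (SD, n = 5 each), a difference of 0.55 (SE 0.20).

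KLRK1, an activating receptor of NK cells and CD8 T cells, differed by 0.89 (SE 0.47), and this rested in part on single pigs: without high replicate 5 it was 0.507 and without low replicate 5 it was 0.584. PRF1, the pore-forming protein perforin, differed by 0.44 (SE 0.25), while its other probe set differed by -0.10. CCL5, a chemokine of activated T cells and NK cells, differed by 0.70, and IFNG, the type II interferon that these cells secrete, by 0.96. The clearly negative members were FCER1G at -0.42 and TYROBP at -0.36, signalling adaptors that myeloid cells use as well. The mean of the list was 10.62 in high replicate 5 and between 10.10 and 10.15 in the other 4 high pigs. It ran from 9.50 to 10.25 in the low group.

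The transcript of IFN-alpha had nearly the same mean in both groups. IFNA1 measured 5.71, 6.45, 6.43, 6.22 and 6.71 in the low arrays and 6.22, 6.36, 6.40, 6.01 and 6.34 in the high arrays, so that the high pigs lay within the low range. The difference of IFNA1 was -0.04 (SE 0.18, 95% interval -0.44 to 0.37), and its sign changed in 6 of 24 settings. IFNB1, the other type I ligand measured, was at 3.34 ± 0.33 and 3.47 ± 0.25 (SD, n = 5 each). Of the receptor, IFNAR1 differed by 0.06 (SE 0.29, 95% interval -0.57 to 0.69), and the probe sets of IFNAR2 by 0.18 (SE 0.29) and 0.06 (SE 0.20). Among 20 genes of type I interferon signalling 8 were higher and 12 lower, with 0 under an unadjusted p of 0.05 in limma (1.98% of all genes were). JAK1, a kinase of the receptor, differed by 0.23 (SE 0.16) in one probe set and by -0.38 (SE 0.18) in the other. IRF8, a transcription factor of myeloid and B cells, differed by 0.40 (SE 0.24), and by 0.226 without low replicate 5. SOCS1, a feedback inhibitor of the kinases, differed by 0.36 (SE 0.24), and by 0.04 and 0.23 in its other probe sets. JAK1, IRF8 and SOCS1 were thus higher in the probe set of highest mean, while 12 of the 20 genes were lower.

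Interferon-stimulated genes were mostly at lower values in the high group: 23 of 30 were lower and 7 higher, with a median difference of -0.228. A lower value with an unadjusted p under 0.05 was found for 0 of the 30 genes (0.887% of all genes). OAS1, which makes the activator of the antiviral nuclease RNase L, had the widest spread. It measured 9.17, 13.15, 12.12, 10.35 and 10.45 in the low arrays and 10.82, 4.38, 12.59, 10.52 and 8.53 in the high arrays. High replicate 2 was far below all other pigs, and the remaining values overlapped throughout. The difference of OAS1 was -1.68 (SE 1.31), and without high replicate 2 it was -0.43.

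ISG12(A), a small interferon-induced membrane protein, was at 8.39, 10.82, 7.44, 7.06 and 9.79 in the low pigs and 7.21, 7.39, 8.49, 7.01 and 6.65 in the high pigs, a difference of -1.35 (SE 0.65). Low replicates 2 and 5 were the only pigs above 9 in ISG12(A), and without low replicate 2 the difference was -0.817. XAF1, a pro-apoptotic interferon-induced protein, differed by -0.61 (SE 0.41), RSAD2, the antiviral protein viperin, by -0.95 and MX1, an antiviral GTPase, by -0.26. IFIT1, IFIT2 and IFIT3, which bind viral RNA, differed by -0.0091, 0.06 and -0.14. The list's mean was highest in high replicate 3, followed by low replicate 2 at 9.80, and lowest in high replicate 5 at 8.17 and high replicate 2 at 8.27. Its median therefore depended on single pigs. It was -0.446 without high replicate 3 and -0.347 without low replicate 1, but closer to 0 without low replicate 2 (-0.0521), high replicate 5 (-0.0632), high replicate 2 (-0.132) or low replicate 3 (-0.144).

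**Figure D2:**
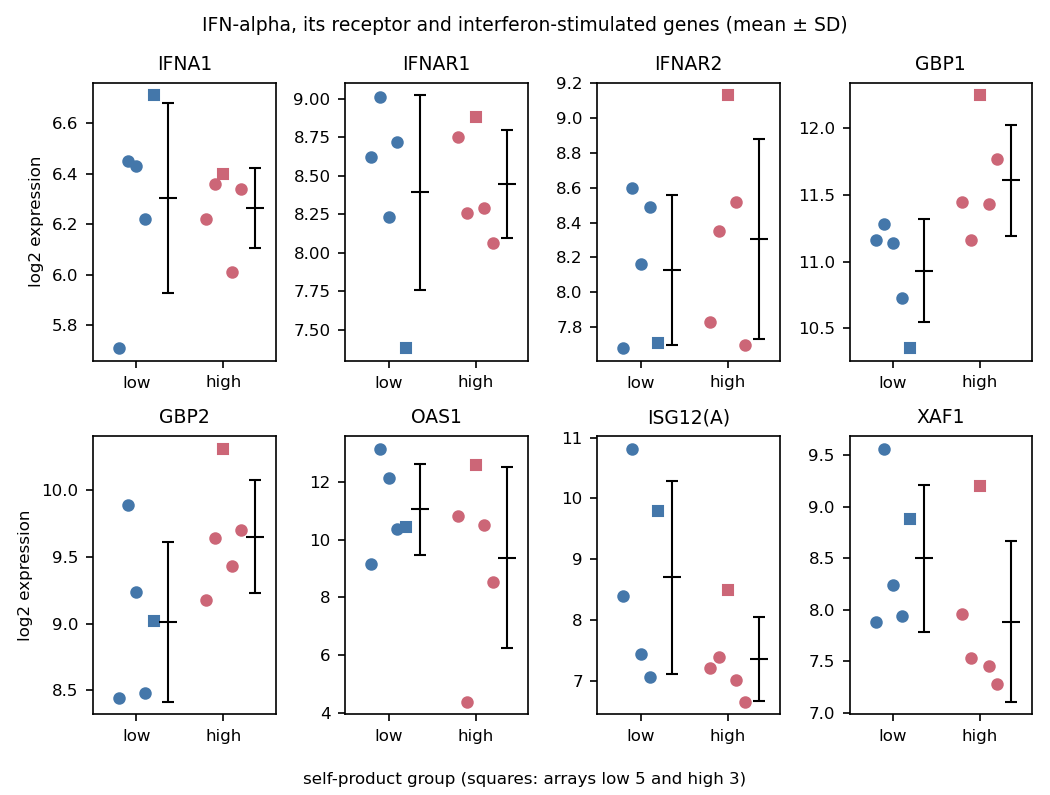
Log2 expression (vertical axes) of IFNA1, the receptor chains IFNAR1 and IFNAR2 and 5 interferon-stimulated genes in the low and high groups, 1 point per pig with the mean and SD beside them; squares are low replicate 5 and high replicate 3. The groups overlap in every panel, OAS1 spans 4.38 to 13.15, and GBP1 and GBP2 have higher means in the high group while OAS1, ISG12(A) and XAF1 have lower ones.

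GBP1 and GBP2 stood on the other side of the same list. These guanylate-binding proteins act against pathogens inside cells and respond to IFN-gamma as well as to type I interferon. GBP1 measured 11.16, 11.28, 11.14, 10.73 and 10.35 in the low arrays and 11.45, 11.16, 12.25, 11.43 and 11.77 in the high arrays. High replicates 1, 3, 4 and 5 were above every low pig in GBP1, and high replicate 2 lay within the low range. The difference of GBP1 was 0.68 (SE 0.24), and its other probe sets gave 0.53 (SE 0.30) and 0.77 (SE 0.26). In the higher bioB minus bioC class alone GBP1 differed by 0.375. GBP2 differed by 0.64 (SE 0.29), with means of 9.01 and 9.65.

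Of 28 cell cycle genes 25 had the higher mean in the high group, with a median difference of 0.369, where 52.5% of all genes were higher. An unadjusted p under 0.05 was found for 1 of the 28, against 1.09% of all genes in the higher direction. That gene was TYMS, thymidylate synthase, which supplies thymidine nucleotides for DNA synthesis. TYMS measured 7.79, 7.90, 8.14, 8.13 and 6.87 in the low arrays and 8.67, 8.48, 7.93, 8.24 and 8.96 in the high arrays. In TYMS 4 of the 5 high pigs were above all low pigs, and high replicate 3 lay within the low range. The difference was 0.69 (SE 0.26), -0.11 (SE 0.18) in the other probe set of TYMS, and 0.314 with the actin 3′ and 5′ difference as a covariate. RRM2, a subunit of ribonucleotide reductase, differed by 0.69, CCNB1, a mitotic cyclin, by 0.66, TOP2A, a topoisomerase of dividing cells, by 0.54 and PCNA, the sliding clamp of replication, by 0.45 (SE 0.26).

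Per pig, the mean of the cell cycle list was 7.49, 7.65, 7.43, 7.25 and 7.02 in low pigs and 7.53, 7.50, 7.93, 7.16 and 8.32 in high pigs. High replicates 3 and 5 were above the low pigs, and the other 3 high pigs were not. Without high replicate 5, 24 of 28 were higher with a median of 0.177. The higher bioB minus bioC class alone gave 23 of 28 with a median of 0.172.

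**Figure D3:**
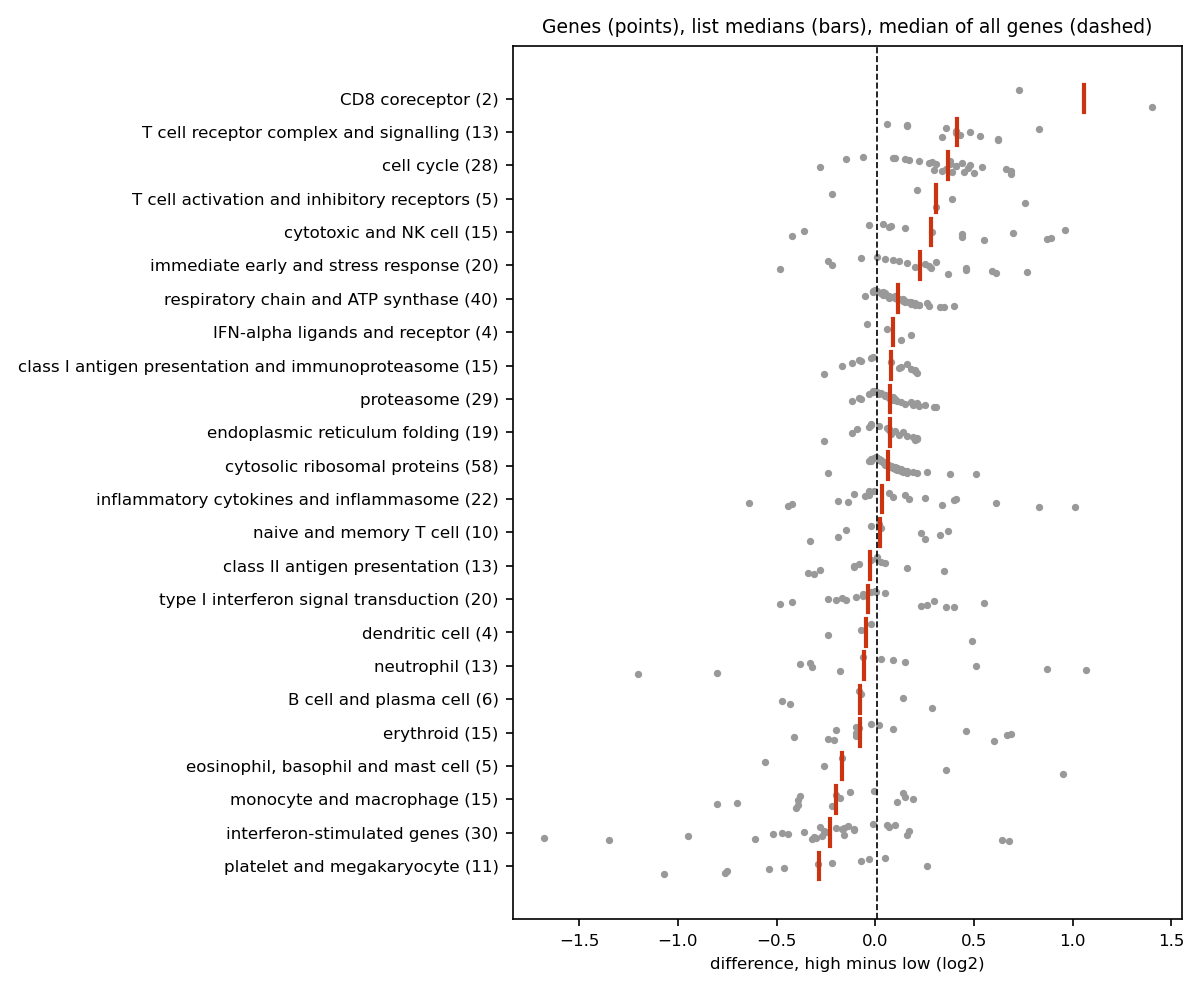
Difference between the high and the low group (horizontal axis, log2) for every measured gene (points) of 24 gene lists, with the median of each list (red bar), the number of measured genes in parentheses and the median over all genes (dashed line, 0.0112). The lists of CD8, T cell receptor and cell cycle genes lie highest, with medians of 1.06, 0.414 and 0.369, and the platelet and interferon-stimulated lists lowest, with medians of -0.285 and -0.228.

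Of the 68 probe sets whose groups did not overlap, 25 carried 1 gene symbol and 43 none. Restricted to probe sets with a symbol whose mean was not below that of the median probe set, 8 were higher in the high group and 6 lower. For NCALD, LMO4, CALD1, LIPA, HPSE and CLTA another probe set of the gene had higher means, and that probe set overlapped between the groups. After CD8A, the next higher gene was NCALD, the neuronal calcium sensor neurocalcin delta. NCALD measured 5.77, 6.06, 6.30, 5.89 and 6.01 in the low arrays and 6.88, 6.75, 6.52, 6.37 and 7.22 in the high arrays, a difference of 0.74 (SE 0.18). Its other 3 probe sets were higher too, by 0.65 (SE 0.21), 0.66 (SE 0.21) and 0.34 (SE 0.24), although these overlapped between groups.

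LMO4, a LIM-domain regulator of transcription, measured 8.08, 7.70, 7.53, 7.81 and 6.34 in the low arrays and 9.20, 8.49, 8.24, 8.90 and 9.12 in the high arrays. All high pigs were above all low pigs, and the difference was 1.30 (SE 0.31), or 2.46-fold. The other 2 probe sets of LMO4 differed by -0.14 (SE 0.24) and -0.02 (SE 0.23), so the separation is that of 1 probe set. MLLT11, known as a fusion partner in leukaemia, differed by 0.53 (SE 0.15) and POLR3A, the largest subunit of RNA polymerase III, by 0.53 (SE 0.17). VPS16, a subunit of the tethering complexes of endosomes and lysosomes, differed by 0.38 (SE 0.14), and by 0.64 (SE 0.28) in its other probe set. The last 2 genes act in dividing cells: TRIP13, an ATPase of the mitotic checkpoint, differed by 0.45 (SE 0.16) and CDC45, a part of the replicative helicase, by 0.43 (SE 0.16), or 0.17 (SE 0.14) in its other probe set.

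**Figure D4:**
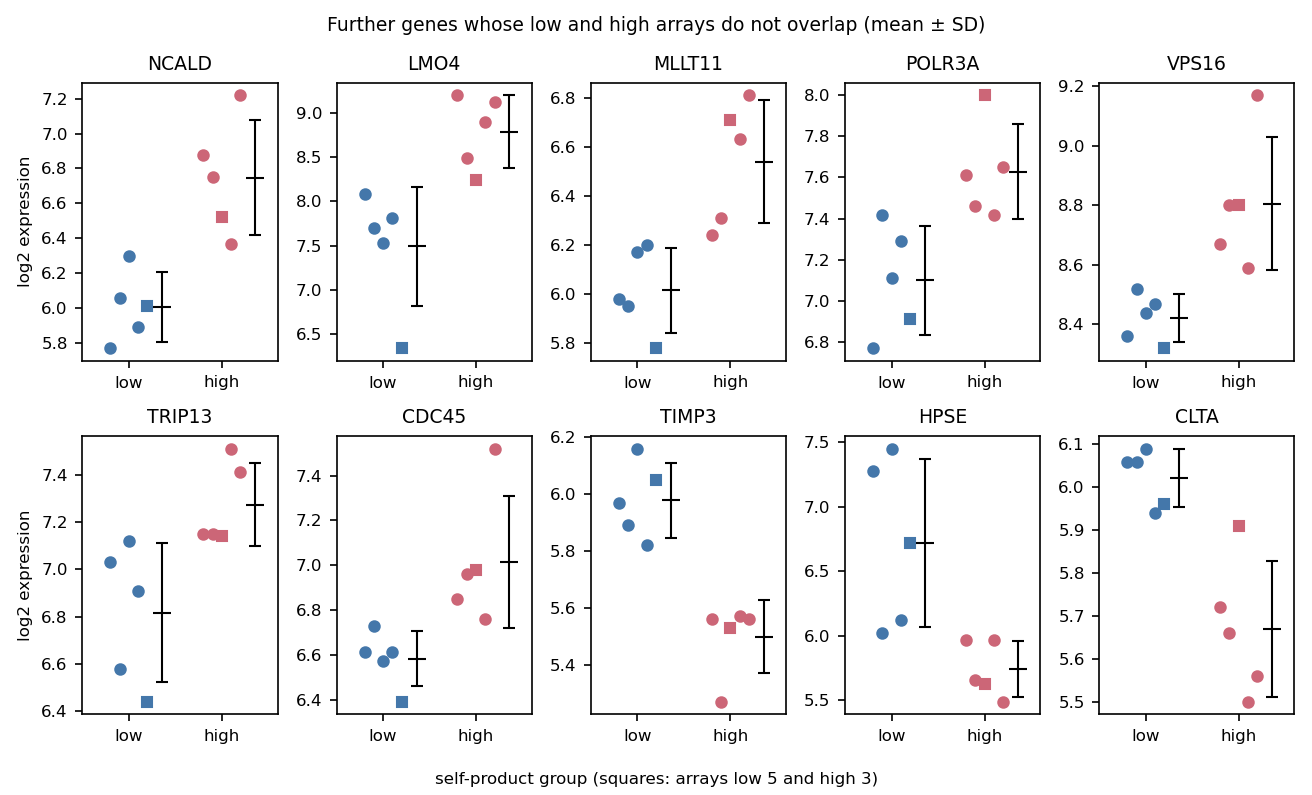
Log2 expression (vertical axes) of 10 further genes whose low and high pigs do not overlap in the probe set shown, 1 point per pig with the mean and SD beside them. Squares are low replicate 5 and high replicate 3. NCALD, LMO4, MLLT11, POLR3A, VPS16, TRIP13 and CDC45 are higher in the high group, by 0.38 to 1.30, and TIMP3, HPSE and CLTA are lower, by -0.97 to -0.35.

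On the lower side, CALD1, the actin-binding protein caldesmon, measured 8.50, 7.91, 8.07, 7.88 and 8.35 in the low arrays and 7.01, 5.81, 7.13, 7.56 and 5.62 in the high arrays. The low pigs were close together and the high pigs spread over almost 2 log2 units below them. The difference of CALD1 was -1.51 (SE 0.35), or 2.86-fold lower, while its other probe set differed by -0.20 (SE 0.53). LIPA, the lysosomal acid lipase that frees cholesterol from its esters, measured 7.57, 7.75, 7.82, 7.65 and 8.09 in the low arrays and 6.88, 7.10, 7.55, 6.81 and 6.84 in the high arrays. High replicate 3 came within 0.02 of the lowest low pig in LIPA, and the other 4 were well below it. The difference was -0.74 (SE 0.17), and 0.01 (SE 0.15) in the other probe set.

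HPSE, heparanase, which cuts heparan sulfate, differed by -0.97 (SE 0.28), with differences between -0.35 and 0.06 in its other 3 probe sets. TIMP3, an inhibitor of metalloproteinases, differed by -0.48 (SE 0.12) and CLTA, a clathrin light chain, by -0.35 (SE 0.12). The other probe sets gave 0.0032 and -0.21 for TIMP3, and -0.04 (SE 0.14) and 0.44 (SE 0.29) for CLTA. RFC1, the large subunit of the clamp loader of replication, differed by -0.33 (SE 0.17) without overlap, and by -0.185 without low replicate 5, which stood at 7.75 against at most 7.07 in the other low pigs. The unadjusted p of these 14 genes ran from 0.000267 for CD8A to 0.0721 for RFC1 in limma, and the adjusted p was 1 for each.

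The largest differences of all named genes were negative and belonged to macrophage genes. VSIG4, a complement receptor of tissue macrophages, measured 9.87, 8.35, 4.79, 4.58 and 8.12 in the low arrays and 3.97, 4.57, 5.64, 3.96 and 4.40 in the high arrays. Low replicates 1, 2 and 5 were far above all high pigs, and low replicates 3 and 4 lay among them. The difference of VSIG4 was -2.64 (SE 0.91, 95% interval -4.64 to -0.64), or 6.22-fold lower, and its other probe sets differed by -0.45 (SE 0.19) and -0.78 (SE 0.28). With array weights the difference was -1.23, and with the actin covariate it was -1.49. C1QC, a chain of the complement protein C1q made by macrophages, was high in the same 3 pigs: 9.47, 6.32, 3.88, 3.75 and 7.81 in the low arrays against 3.72, 4.44, 5.23, 4.05 and 3.89 in the high arrays. Its difference was -1.98 (SE 0.96), -1.17 without low replicate 1, -0.705 with the actin covariate and -0.503 with array weights. The actin 3′ minus 5′ value was between 2.62 and 3.99 in low replicates 1, 2 and 5, the highest of the low group, and 2.92 in high replicate 3, the highest high pig for both genes. Beyond that covariate its part in the result was not tested.

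GPNMB, a glycoprotein of lysosome-rich macrophages, had another pattern. It measured 11.34, 10.91, 11.31, 11.67 and 7.19 in the low arrays and 7.75, 6.55, 10.27, 8.05 and 6.63 in the high arrays. Low replicates 1 to 4 and high replicate 3 were all above 10, and the other 5 pigs were at 8.05 or below. The difference of GPNMB was -2.64 (SE 0.90), and a further probe set gave -2.04 (SE 0.49), while 3 probe sets near the bottom of the scale differed by -0.07 to 0.03. The 2 pigs against the direction of their group, low replicate 5 and high replicate 3, are the 2 arrays of the lower bioB minus bioC class. In the other 4 low and 4 high arrays GPNMB averaged 11.31 and 7.24, a difference of -4.06. That restriction was chosen after seeing the data and leaves out exactly the 2 pigs that go against their group, so the value is a description with no test. SPP1, osteopontin, a secreted phosphoprotein of macrophages, measured 8.45, 10.01, 8.08, 6.32 and 6.96 in the low arrays and 6.71, 6.75, 5.49, 6.10 and 5.45 in the high arrays, a difference of -1.86 (SE 0.59). In SPP1, low replicate 4 alone overlapped with the high pigs.

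**Figure D5:**
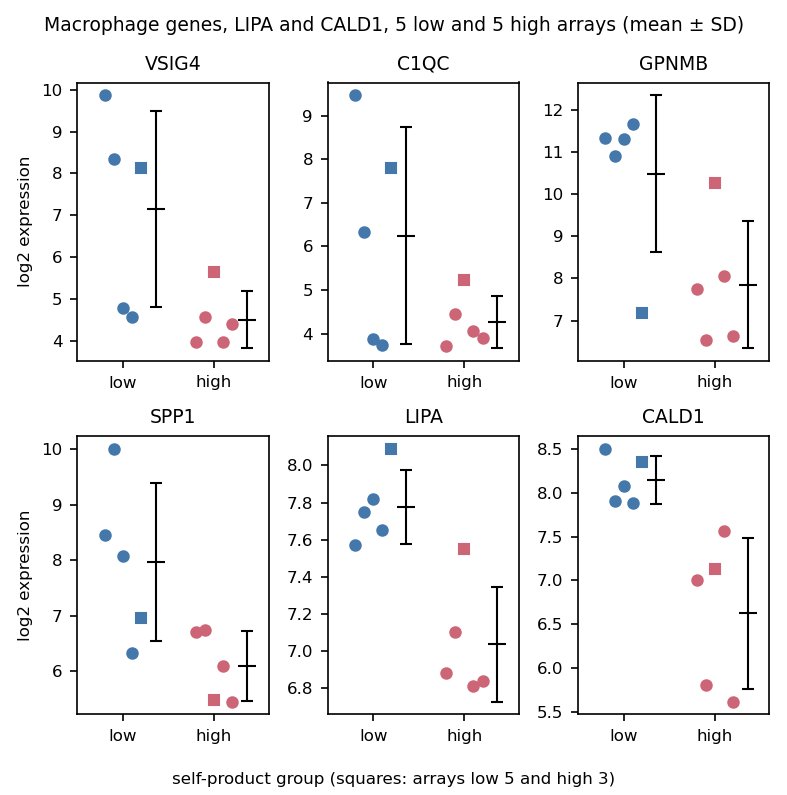
Log2 expression (vertical axes) of the macrophage genes VSIG4, C1QC, GPNMB and SPP1 and of LIPA and CALD1 in the low and high groups, 1 point per pig with the mean and SD beside them; squares are low replicate 5 and high replicate 3. VSIG4 and C1QC are high in 3 low pigs, GPNMB in 4 low pigs and in high replicate 3, and LIPA and CALD1 separate the groups in the probe set shown. Their other probe set overlaps, with low and high means of 9.37 and 9.38 for LIPA and 10.88 and 10.68 for CALD1.

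The wider monocyte and macrophage list had smaller differences. Of its 15 measured genes 11 were lower and 4 higher, with a median of -0.201. FCGR1A, the high-affinity IgG receptor, at -0.40 (SE 0.18), had the only unadjusted p under 0.05 in limma. Of all genes 0.887% had one in the lower direction. FCGR1A averaged 5.14, below the median probe set at 5.61, and differed by -0.198 with the actin covariate. CD163, a scavenger receptor, differed by -0.70, TLR4, a receptor of bacterial lipopolysaccharide, by -0.80 (SE 0.61) and CD14, its coreceptor, by -0.38. The difference of TLR4 was -0.288 without high replicate 5 and -0.51 without low replicate 2. The list's mean was 7.70, 8.93, 8.45, 8.42 and 7.50 in the low pigs and 8.00, 8.15, 8.28, 8.17 and 7.33 in the high pigs, so low replicates 1 and 5, which were high in VSIG4 and C1QC, were the lowest of their group here. The median of the list was 0.0107 without high replicate 5, -0.0281 without low replicate 2, -0.0631 without low replicate 3 and -0.336 without low replicate 1.

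Platelet and megakaryocyte genes were lower in 9 of 11 cases, with a median of -0.285. PTGS1, the cyclooxygenase of platelets, differed by -1.07 (SE 0.44), and by -0.683 without low replicate 4, while its other probe set differed by -0.05. VWF, von Willebrand factor, differed by -0.76 (SE 0.38) and PPBP, a platelet chemokine, by -0.75 (SE 0.46). The other probe sets of VWF gave 0.07 and -0.09, and PPBP was at -0.363 without high replicate 5. The list's mean was lowest in high replicate 5 (8.21) and high replicate 3 (8.27), and ran from 8.65 to 9.73 in the low group. Omitting high replicate 3 or 5 gave medians of -0.106 and -0.123, and omitting high replicate 4 or 1 gave -0.532 and -0.444. With the actin 3′ minus 5′ value as a covariate it was -0.734, with 10 of 11 genes lower.

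Other blood cell types had medians nearer to 0, and the median of each of the 5 lists that follow changed sign when 1 or another pig was left out. Of 13 neutrophil genes 6 were higher and 7 lower (median -0.0586). S100A8, a calcium-binding protein of neutrophils and monocytes, differed by -1.20 (SE 0.62) and S100A12 by -0.80 (SE 0.44). Without low replicate 2 these were -0.686 and -0.462, and with array weights S100A8 was at -1.89. NPG4, the antimicrobial peptide protegrin 4, differed by 1.07 (SE 0.86) on this list, with high replicate 3 at 13.81 and the other high pigs at most at 10.26, and by 0.212 without high replicate 3. The protegrin genes are close copies of each other, so the probe sets of NPG4 may measure several of them. Erythroid genes were higher in 6 of 15 cases (median -0.0793), with HBB, beta globin, at 0.60 (SE 0.26), and 0.375 without low replicate 2. UROD, DCAF12 and ALAD on that list were at -0.21 (SE 0.22), -0.24 (SE 0.27) and -0.41 (SE 0.46). B cell and plasma cell genes were higher in 2 of 6 cases (median -0.0753), with CD79B, a chain of the B cell receptor, at -0.47 (SE 0.36). The higher members were JCHAIN at 0.29 (SE 0.21) and TNFRSF17 at 0.14 (SE 0.24). Dendritic cell genes were higher in 1 of 4 cases (median -0.0454), with XCR1, a chemokine receptor of cross-presenting dendritic cells, at -0.24 (SE 0.19). The higher member, TCF4, had the largest difference of the 4, at 0.49 (SE 0.29). Eosinophil, basophil and mast cell genes were higher in 2 of 5 cases (median -0.168), with MS4A2, a chain of the IgE receptor, at 0.95 (SE 0.51). ALOX15 and KIT on that list were at -0.56 (SE 0.44) and -0.26 (SE 0.20).

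No gene of antigen presentation or inflammation on the lists that follow had an unadjusted p under 0.05 in limma (1.98% of all genes had). This holds for 1 probe set per gene, that with the highest mean. The medians of these lists also changed sign when single pigs were left out. Class I genes, whose products present peptides to CD8 T cells, were higher in 8 of 15 cases (median 0.0805). SLA-6, a non-classical pig class I gene, differed by 0.21 (SE 0.15), and CANX, also on this list, by -0.26 (SE 0.16). PDIA3, a further member, differed by 0.20 (SE 0.15). Its other probe sets differed by 0.79 (SE 0.32, unadjusted p 0.0293 in limma) and 0.01 (SE 0.20). Class II genes were higher in 6 of 13 cases (median -0.0241), and CD74, the invariant chain, differed by 0.35 (SE 0.29). SLA-DOA, LGMN and SLA-DRB1 differed by -0.31 (SE 0.20), -0.34 (SE 0.23) and -0.28 (SE 0.25). Inflammatory genes were higher in 11 of 22 cases (median 0.0341). IL1B, an inflammasome product, differed by 1.01 (SE 0.72), but by 0.0744 with array weights. IL10, the anti-inflammatory cytokine, was at 0.83 (SE 0.44) and CASP1, the enzyme that matures IL1B, at -0.44 (SE 0.38).

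Pigs of this pair also served in other trait pairs, which is why values of other pairs are set beside these and not tested against them. By correlations above 0.99, 8 of the 10 pigs recurred, and low replicates 3 and 5 did not. The other pairs that involve CD8+ share 3 pigs (CD8+ with W35, the body weight at day 35) and 4 pigs (CD8+ with IL-10) with this pair, of which 2 each are on the opposite side. CD8A differed by 1.40 (SE 0.27) here, by 0.88 (SE 0.36) in CD8+ with W35 and by 0.08 (SE 0.63) in CD8+ with IL-10. The pair of CD4+ and IFN-alpha has 4 pigs in common, 2 of them on the opposite side, and there CD8A differed by -0.29 (SE 0.50). NCALD differed by 0.09 (SE 0.25), 0.38 (SE 0.37) and 0.13 (SE 0.41) in the same 3 pairs, and CALD1 by -0.80 (SE 0.63), 0.09 (SE 0.59) and 1.18 (SE 0.78). In the probe sets named, CD8A, NCALD and CALD1 separated high from low pigs in this pair and overlapped in each of those 3 pairs.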

How the data were processed

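Expression in pig blood was measured on Affymetrix porcine arrays. The authors processed them with RMA and used limma, per the submitters' processing notes, which give no versions or settings. What the authors deposited is the log2 expression of each probe set. Array means differed by at most 0.0418 within this trait pair (5.875 to 5.916) and other pairs had other means, so only its own 10 arrays were fitted. Of 24123 probe sets, 124 controls were set aside. By the platform's annotation 10069 carry 1 gene symbol, 198 several and 13732 none; 6765 genes remained with 1 probe set each, that with the highest mean. The genome build is not given in the sources used here.

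R 4.3.3 and limma 3.58.1 were used: a group term per probe set, eBayes, two-sided tests and Benjamini-Hochberg adjustment over all 23999 probe sets, at 0.05. SE and 95% intervals are limma's. The code was tested on simulated data. Gene lists (24) are described by counts and medians, with no test. Figures used Python 3.11.15 and matplotlib 3.10.9.

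Named are the trait genes, in each direction the 12 genes or fewer of smallest p among probe sets without overlap and with a mean at or above the median, the 4 smallest p of each list, and the 6 largest differences per direction, not all of which are printed. Further list members were chosen after their values were seen. Members and lists were chosen with earlier results of these data known. Arrays carry no counts, so depth is unknown and the number of pigs limits precision. Nothing says whether pigs are litter mates. Arrays of the same replicate number correlated between -0.0353 and 0.27 after group means were removed, so numbers were not taken as pairs. The deposited sheet of group labels was not used.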

Additional observations from a re-analysis of the deposited data

Results flagged for a closer look

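In groups of 5 pigs, a pig whose distance to its nearest neighbour made up most of its group's whole range, past Dixon's 95% critical value, was singled out. Of 280 groups of values 21 met this, where chance gives about 14. High replicate 5 held 5 of them and low replicate 5 held 4.

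In the low group, low replicate 5 was apart in RFC1 (0.867 of the range), GPNMB (0.83), CCR7 (0.818) and TYMS (0.722). It measured 7.86 in CCR7, where the other low pigs reached at most 6.73. Low replicate 2 was apart in EIF1AY (0.934) and SLA-DRB1 (0.781), a class II gene at 11.10 there and at least 11.87 in the other low pigs. Low replicate 4 was apart in SPIB (0.746), a B cell transcription factor at 9.21 against at most 8.03, in OLFM4 (0.728) and in ALOX15 (0.734). Low replicate 1 was apart in MAVS (0.788), at 4.11 against at least 4.52.

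In the high group, high replicate 5 was apart in KLRK1 (0.81), at 11.56 against at most 9.89, in the mean over cytotoxic and NK cell genes (0.907), in AIF1 (0.785), PCNA (0.734) and CDC45 (0.714). It was the highest pig in all of these but AIF1, a monocyte gene, where it was the lowest at 10.04. High replicate 3 was apart in 1 probe set of NPG4 (0.841), at 9.40 against at most 4.41, and in CD83 (0.715). High replicate 2 was apart in IL12B (0.923), a subunit of interleukin 12 at 5.87 against at most 4.32, and in TIMP3 (0.868). High replicate 4 was apart in EIF1AY (0.924) and, by a small distance, in COX7C (0.715).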

How the results depend on the processing

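With all 10 arrays 0 probe sets passed an adjusted p of 0.05, and this held in 23 of the 24 refits and at an adjusted p of 0.1. The exception was the higher bioB minus bioC class alone, chosen after seeing the data, with 2 probe sets, both of GPNMB, the gene in which the 2 arrays left out go against their group, so this is no independent support. There, 862 had an unadjusted p under 0.05, 463 of them lower, and 488 did not overlap. In the lower EIF1AY class alone, also added, 337 did not overlap. The 474 became 2551 with array weights (1392 higher, 1159 lower) and 55 at p under 0.01 with a 1.5-fold difference (35 and 20). The median filter gave 245 (162 and 83, with 25 not overlapping). With 1 probe set per gene there were 119 (63 and 56, with 14 not overlapping). Both of these settings test fewer probe sets, 6765 in the second, so their counts do not compare with the 474. In the main limma fit 134 of those 6765 genes (1.98%) had an unadjusted p under 0.05, the same share as of all probe sets. With the actin covariate more were lower, 346 against 166. Leaving out 1 array gave 278 to 1190, with 167 to 804 higher, 111 to 386 lower and 106 to 269 not overlapping. A lack of overlap is easier to reach with fewer arrays, here and in the classes alone. Those counts do not compare with the 68 of all 10 arrays. With the replicate block there were 586, 357 higher and 229 lower, and no array correlated best with its own number. List medians that moved past 1 SD were those of T cell activation (0.575 with the filter, which leaves fewer genes), class I (-0.0998 with array weights) and B cells (-0.412 with array weights, -0.458 in the lower EIF1AY class). Other causes were not tested. Of 116 named probe sets 11 changed sign somewhere, and of the 23 chosen by smallest p or largest difference 0 did. Those 23 were chosen in these same data for separation or size, and values without overlap keep their sign when arrays are dropped. The 0 is therefore no support for them.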

Other observations

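Genes for general cell functions showed small and even differences. Of 40 genes of the respiratory chain and ATP synthase, which make ATP in mitochondria, 36 were higher in the high group, with a median difference of 0.116. ATP5A1, a subunit of the ATP synthase, averaged 11.69 ± 0.17 in low pigs and 12.04 ± 0.19 in high pigs (SD, n = 5 each), and the difference was 0.35 (SE 0.14). The list's median was 0.0476 without high replicate 5, with 28 of 40 genes higher, and 0.0757 without low replicate 5. Of 58 cytosolic ribosomal proteins 52 were higher, by a median of 0.063, and 40 were higher without low replicate 2, by 0.0228. Proteasome genes were higher in 22 of 29 cases (median 0.0741), and genes of protein folding in the endoplasmic reticulum in 13 of 19 (median 0.0734). In the higher bioB minus bioC class alone these were 15 of 29 and 8 of 19.

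Immediate early and stress genes were higher in 16 of 20 cases, with a median of 0.226. EGR1, an immediate early transcription factor, measured 8.82, 8.35, 10.38, 10.53 and 8.18 in the low arrays and 9.06, 9.55, 9.74, 10.64 and 11.12 in the high arrays, a difference of 0.77 (SE 0.53). Array weights brought the difference of EGR1 to 0.106. MYC, a growth regulator, differed by 0.37 (SE 0.19). Without low replicate 5 the list had 9 of 20 genes higher and a median of -0.0407, and with the actin covariate 6 of 20 and -0.0885.

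Further large differences among named genes were those of NAP1L5 and RDX. NAP1L5, a member of the nucleosome assembly protein family, measured 7.57, 5.30, 5.69, 4.71 and 5.14 in the low arrays and 7.46, 7.75, 5.21, 6.56 and 9.14 in the high arrays, a difference of 1.54 (SE 0.69). RDX, the actin-membrane linker radixin, was above every low pig in 4 of 5 high pigs and differed by 1.19 (SE 0.38), and its other probe set by 0.64 (SE 0.38).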
